A study of Mus musculus with 11 samples.

Results

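The genes described here are 10 genes of the leukotriene and prostaglandin pathways, measured in mouse lung after allergen or saline in wild-type mice and in mice without Foxa3. They are Alox5, Alox5ap, Ltc4s, Lta4h, Cysltr1, Alox15, Ptgs1, Ptgs2, Hpgds and Ptgds, taken by gene name from the array's probes, with Hpgds under its older name Ptgds2. All 10 were found, by 14 of the 41174 probes other than controls, and all 14 probes were well above background on 11 of 11 arrays. They are 10 of 21875 genes kept for testing, where a gene needed a probe well above background on at least 2 arrays.

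Total lung RNA was hybridised to 11 one-colour Agilent arrays. The groups were 3 arrays of littermate controls given saline (WT saline), 2 of Foxa3-/- mice given saline (KO saline), 3 of littermate controls given OVA (WT OVA) and 3 of Foxa3-/- mice given OVA (KO OVA). OVA is ovalbumin, the egg protein commonly used as an inhaled allergen in mouse models of asthma, and Foxa3 is a forkhead transcription factor. The labels give no strain, age, dose or time, do not say which part of Foxa3 is deleted or whether it is lost in every cell, and do not say that each array is 1 animal, so that p-values measure only the spread between these samples.

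Both pathways start from arachidonic acid that phospholipases cut from cell membranes. Alox5 (5-lipoxygenase), helped by the membrane protein Alox5ap (FLAP), turns it into leukotriene A4, from which Ltc4s makes leukotriene C4, the first cysteinyl leukotriene, and Lta4h makes leukotriene B4, an attractant of leukocytes. Cysteinyl leukotrienes contract airway smooth muscle through the receptor Cysltr1, the target of montelukast. The cyclooxygenases Ptgs1 and Ptgs2 instead make prostaglandin H2, which Hpgds (the form of blood-derived cells) or Ptgds (the lipocalin form, known from the brain) turns into prostaglandin D2, while Alox15 oxidises arachidonic acid at other positions.

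Levels below are log2 intensities minus the array's 75th percentile of all probes, so that 0 is the level of that percentile and each unit is a doubling. They compare one gene between arrays and not one gene with another, since probes differ in brightness. Of the 14 probes, 4 are listed with a span wider than the probe's own 60 bases, in the mm7 coordinates of the files, so that each crosses a gap in the genome such as an intron leaves. They are shown because they belong to the member that changed most (Alox15), to both prostaglandin D synthases, of which 1 rose, and to Lta4h, which did not pass the test. The Alox15 probe lies at chr11:70427187-70427411 (minus strand), the Hpgds probe at chr6:65107840-65111368 (minus), the Ptgds probe at chr2:25474633-25475164 (minus) and the Lta4h probe at chr10:93033464-93033861 (plus).
Alox15: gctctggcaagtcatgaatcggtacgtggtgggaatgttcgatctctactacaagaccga
Hpgds: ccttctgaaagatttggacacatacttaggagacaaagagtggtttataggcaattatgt
Ptgds: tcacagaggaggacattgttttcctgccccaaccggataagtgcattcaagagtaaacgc
Lta4h: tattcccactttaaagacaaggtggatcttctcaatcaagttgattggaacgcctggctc
The longest run of bases shared by probes of different members was 9, over 86 pairs, so that no 2 members were read by near-identical probes.

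Across the series, 71.16% to 78.87% of probes were well above background per array. Foxa3 itself was well above background on the 6 wild-type arrays and on none of the 5 knockout arrays, with a mean level of -3.93 in WT OVA and -8.41 in KO OVA, at least 8.57-fold lower in the knockout (adjusted p 0.000353). The arrays lay on 3 slides, with every group once on slides 1 and 2 and no KO saline array on slide 3, and arrays of 1 slide deviated together from their group means (median correlation 0.27 over 15 pairs, against -0.16 over 30 pairs on different slides). In principal components over all genes, the 4 arrays of slide 1 stood apart on the second (33.8 to 41.9, the other arrays -29.2 to -16.3) and WT OVA replicate 1 on the third (66.9, the others -21.0 to 8.5), so the results are also given within slides and without these arrays.

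OVA raised a part of both pathways in wild-type lung: the leukotriene helper Alox5ap, the receptor Cysltr1, the lipoxygenase Alox15, the cyclooxygenase Ptgs1 and the prostaglandin D synthase Hpgds. These were 5 of the 10 members, and 0 fell, where 10.9% of all genes tested rose, 7.9% fell and 18.8% changed in either direction. In Foxa3 knockout lung 4 of the same 10 rose (Alox5ap, Cysltr1, Alox15 and Hpgds) and 0 fell, against 6.45% of all genes that rose, 1.78% that fell and 8.23% in all. The members were chosen with earlier results of these data known, so these shares are no test of enrichment. The median log2 difference over the members was 0.62 in wild type and 0.72 in knockout, beside 0.02 and -0.01 over all genes. Saline and OVA arrays did not overlap for 5 members in wild type and for 6 in knockout (those 5 and Ptgs2), where 42.8% and 48.9% of all genes did not. Each genotype was set against its own saline arrays, so the 2 comparisons share no array, although they share 1 estimate of the spread. Whole lung was measured, so that more cells of a type and more RNA per cell cannot be told apart.

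**Figure D1:**
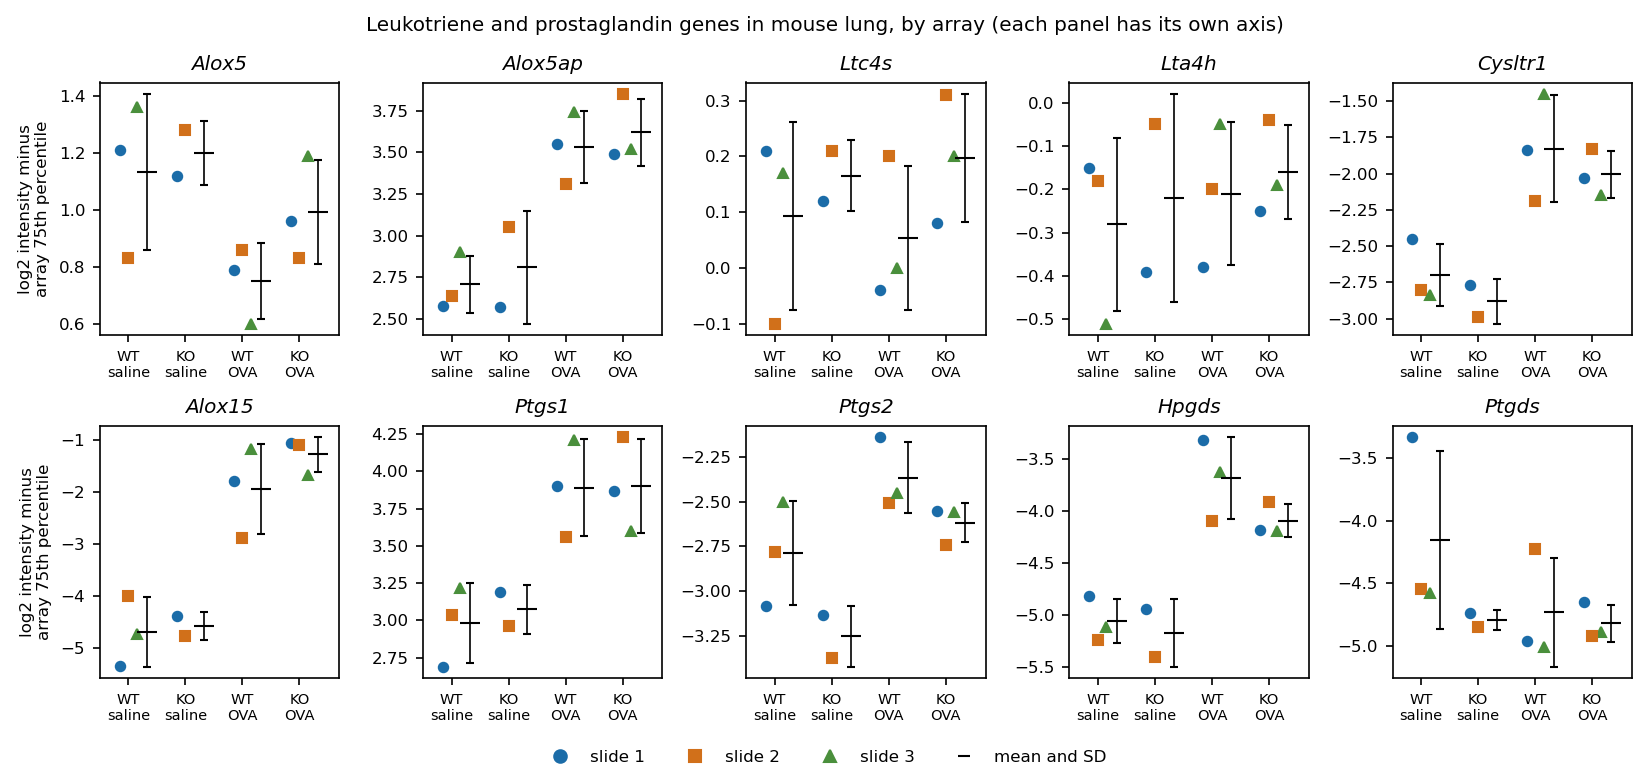
Level of each of the 10 genes on each array, as log2 intensity minus the array's 75th percentile (y axis, a separate scale in each panel), in the 4 groups (x axis). Symbols and colours give the slide, and the bar beside each group gives the mean and SD. Alox15 lay between -5.34 and -4.00 on saline arrays and between -2.88 and -1.07 on OVA arrays, while the Lta4h and Ltc4s groups overlap throughout.

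The enzyme that starts leukotriene synthesis did not rise with OVA. Alox5 lay at 1.21, 0.83 and 1.36 in WT saline and at 0.86, 0.60 and 0.79 in WT OVA, and the ranges of these groups overlapped. The knockout arrays read 1.28 and 1.12 after saline and 0.96, 1.19 and 0.83 after OVA, which overlap too. The log2 difference was -0.38 ± 0.16 (SE) in wild type (adjusted p 0.117) and -0.20 ± 0.18 in knockout (adjusted p 0.476), with 95% intervals of -0.74 to -0.02 and -0.61 to 0.20. All 3 Alox5 probes gave negative differences in both genotypes, the other 2 at -0.36 and -0.47 in wild type and -0.27 and -0.40 in knockout, and none passed the test.

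Its partner behaved differently. Alox5ap, which presents arachidonic acid to the enzyme, lay at 2.58, 2.64 and 2.90 in WT saline and at 3.31, 3.74 and 3.55 in WT OVA. In knockout lung it lay at 3.05 and 2.57 after saline and at 3.49, 3.52 and 3.85 after OVA. Every OVA array was above every saline array in both genotypes. The rise was 0.83 ± 0.18 in wild type (1.77-fold, adjusted p 0.0173) and 0.81 ± 0.20 in knockout (1.75-fold, adjusted p 0.0402), and the knockout call was lost with slide as a block (adjusted p 0.081).

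Neither of the enzymes that act after them passed the test. Ltc4s, the leukotriene C4 synthase, lay at 0.21, -0.10 and 0.17 in WT saline and at 0.20, 0.00 and -0.04 in WT OVA. Its knockout arrays read 0.21 and 0.12 after saline and 0.08, 0.20 and 0.31 after OVA, and all 4 groups overlapped. The difference was -0.04 ± 0.12 in wild type (95% interval -0.31 to 0.23, adjusted p 0.849) and 0.03 ± 0.13 in knockout (-0.27 to 0.33, adjusted p 0.913). Lta4h, the leukotriene A4 hydrolase, lay between -0.51 and -0.15 in WT saline, between -0.39 and -0.05 in KO saline, between -0.38 and -0.05 in WT OVA and between -0.25 and -0.04 in KO OVA. Its difference was 0.07 in wild type (-0.26 to 0.40, adjusted p 0.781) and 0.06 in knockout (-0.31 to 0.43, adjusted p 0.845), so that the intervals of both genes leave out a change as large as that of Alox5ap.

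The receptor of the cysteinyl leukotrienes rose. Cysltr1 lay at -2.45, -2.80 and -2.84 in WT saline and at -2.19, -1.45 and -1.84 in WT OVA. The knockout arrays lay at -2.99 and -2.77 after saline and at -2.03, -2.15 and -1.83 after OVA. All 6 OVA arrays were above all 5 saline arrays. The rise was 0.87 ± 0.20 in wild type (1.83-fold, adjusted p 0.0208) and 0.88 ± 0.22 in knockout (1.84-fold, adjusted p 0.0434, and 0.0872 with slide as a block). A second Cysltr1 probe rose as well, by 1.37 in wild type (adjusted p 0.0106 over all probes) and by 1.19 in knockout (adjusted p 0.0369).

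Alox15 changed most. This lipoxygenase, which in the mouse makes mainly 12-HETE, is known from eosinophils and resident peritoneal macrophages. It lay at -5.34, -4.00 and -4.72 in WT saline and at -2.88, -1.18 and -1.79 in WT OVA. The knockout arrays lay at -4.76 and -4.39 after saline and at -1.07, -1.67 and -1.11 after OVA. The OVA and saline arrays did not overlap in either genotype, and WT OVA replicate 1 was the lowest of the 6 OVA arrays. The rise was 2.74 ± 0.45 in wild type (6.67-fold, adjusted p 0.00722) and 3.29 ± 0.51 in knockout (9.77-fold, adjusted p 0.0081). It kept its call with slide as a block (adjusted p 0.0218 and 0.0318), but by slide it was 3.55, 1.12 and 3.54 in wild type, and the smallest value, that of slide 2, sets the lowest OVA array (WT OVA replicate 1) against the highest saline array (WT saline replicate 2).

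Of the cyclooxygenases, the constitutive form Ptgs1 lay at 2.69, 3.04 and 3.22 in WT saline and at 3.56, 4.21 and 3.90 in WT OVA. In knockout lung it lay at 2.96 and 3.19 after saline and at 3.87, 3.60 and 4.23 after OVA, and again the OVA arrays were all above the saline arrays. Its difference was 0.91 ± 0.22 in wild type (1.88-fold, adjusted p 0.0266), a call that was lost narrowly with slide as a block (adjusted p 0.0509). In knockout the difference was 0.83 ± 0.25 and missed the threshold (adjusted p 0.0695). The difference between the 2 effects was -0.08 (95% interval -0.83 to 0.67, adjusted p 1), so a call in 1 genotype does not show that they differ.

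The inducible form Ptgs2, induced by inflammatory stimuli in many cells, lay at -3.08, -2.78 and -2.50 in WT saline and at -2.51, -2.45 and -2.14 in WT OVA, which overlap by the WT saline array at -2.50. The knockout arrays lay at -3.37 and -3.13 after saline and at -2.55, -2.56 and -2.74 after OVA, with no overlap. The difference was 0.42 ± 0.17 in wild type (adjusted p 0.103) and 0.64 ± 0.18 in knockout (adjusted p 0.0648), neither past the threshold. A second Ptgs2 probe, spotted 10 times per array, gave 0.41 (adjusted p 0.164) and 0.62 (adjusted p 0.0998), close to the first.

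Of the prostaglandin D synthases, Hpgds rose and Ptgds did not. Hpgds, the glutathione-dependent form found in mast cells, T helper type 2 cells and antigen-presenting cells, lay at -4.82, -5.24 and -5.11 in WT saline and at -4.10, -3.63 and -3.32 in WT OVA. The knockout arrays lay at -5.40 and -4.94 after saline and at -4.18, -4.19 and -3.91 after OVA. No OVA array overlapped a saline array. The rise was 1.37 ± 0.22 in wild type (2.59-fold, adjusted p 0.00576) and 1.08 ± 0.24 in knockout (2.11-fold, adjusted p 0.032), and both calls held with slide as a block (adjusted p 0.0105 and 0.043). The knockout call was lost with replicate number as a block (limma's adjusted p 0.0857).

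Ptgds, a secreted lipocalin also known from the heart and the meninges, lay at -3.33, -4.55 and -4.58 in WT saline and at -4.23, -5.01 and -4.96 in WT OVA. The knockout arrays lay at -4.85 and -4.74 after saline and at -4.65, -4.89 and -4.92 after OVA. WT saline replicate 1 stood above all the others, and the difference of -0.58 in wild type (adjusted p 0.249) was -0.17 without it. In knockout the difference was -0.02 (adjusted p 0.978). Of 10 cardiac muscle markers, 2 fell with OVA in wild type and 0 in knockout, and the mean of their levels ran from 1.27 to 1.93 in WT saline, 0.41 to 0.80 in KO saline, 0.36 to 1.08 in WT OVA and 0.20 to 0.93 in KO OVA. Their part in the Ptgds values was not tested.

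**Figure D2:**
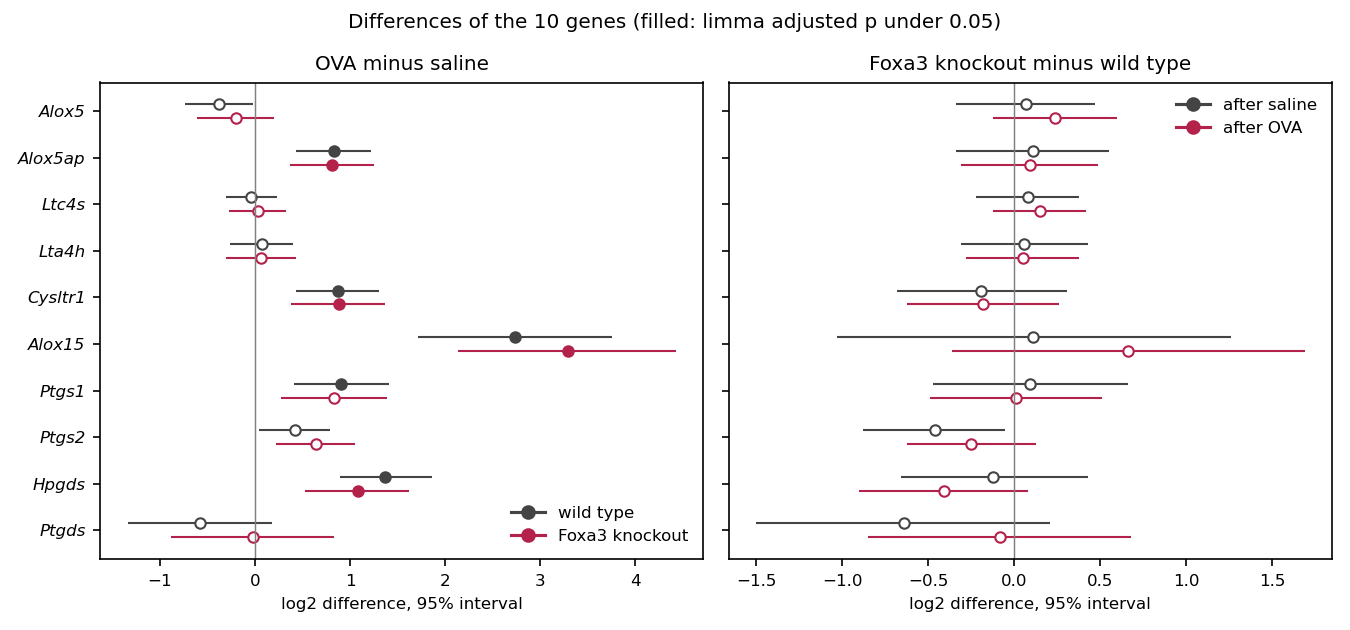
Log2 differences (x axis) of the 10 genes (y axis) with their 95% intervals, OVA minus saline on the left and Foxa3 knockout minus wild type on the right. Filled points passed limma's adjusted p under 0.05, and colours give the genotype (left) or the challenge (right). In wild type 5 genes and in knockout 4 genes lie to the right of 0 as filled points, while no point on the right is filled.

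Within slides, each of the 5 genes called in wild type was higher after OVA in every slide where both arrays exist. This sign was fixed in advance, because no OVA array of these genes overlapped a saline array of its genotype. Only the sizes add to the values above. The values of Hpgds were 1.49, 1.14 and 1.49 in wild type and 0.76 and 1.49 in knockout. Those of Alox5ap were 0.97, 0.67 and 0.84 in wild type and 0.92 and 0.80 in knockout. Those of Cysltr1 were 0.61, 0.61 and 1.39 in wild type and 0.74 and 1.16 in knockout, and those of Ptgs1 were 1.21, 0.52 and 1.00 in wild type and 0.68 and 1.27 in knockout. For Alox5, Ltc4s, Lta4h and Ptgds, which did not pass the test, the sign in wild type differed between slides, with Alox5 at -0.42, 0.03 and -0.76 and Ptgds at -1.63, 0.33 and -0.43. Ptgs2 did not pass either. It was at 0.93, 0.26 and 0.05 in wild type and at 0.58 and 0.64 in knockout, above 0 on every slide.

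**Figure D3:**
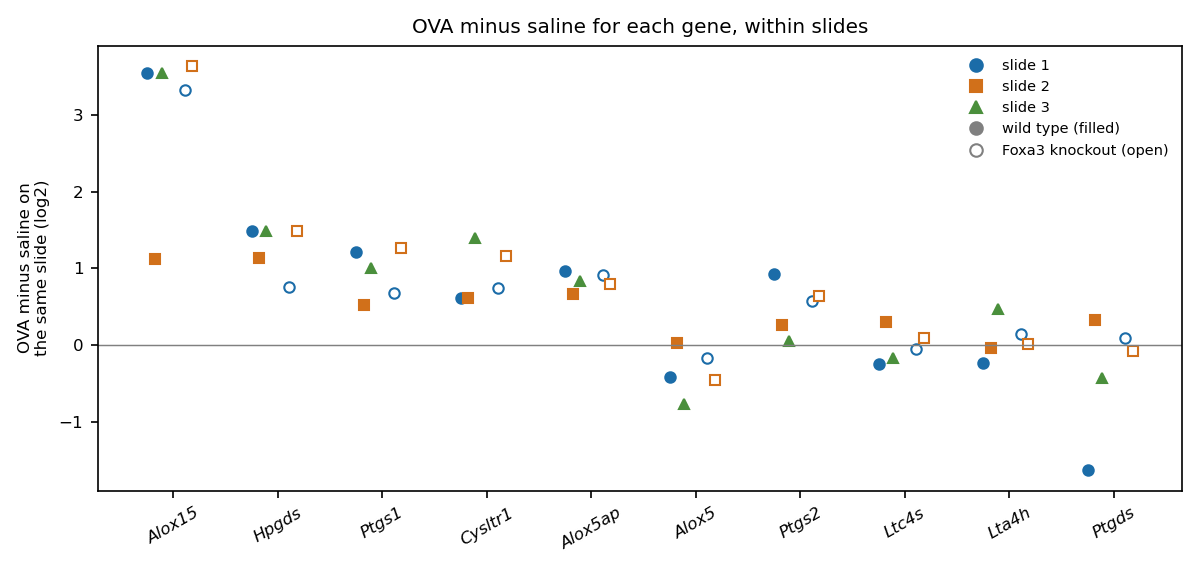
OVA minus saline on the same slide (y axis, log2) for each gene (x axis), with filled symbols for wild type and open symbols for Foxa3 knockout. The 5 leftmost genes and Ptgs2 are above 0 on every slide, with Alox15 in wild type at 3.55, 1.12 and 3.54. For the 5 leftmost this sign follows from OVA and saline arrays that do not overlap. Slide 3 has no knockout pair.

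Several calls were lost without single slides or arrays. Without the 4 arrays of slide 1, 0 of 10 members passed limma's threshold in wild type, and 4 had an unadjusted p under 0.05. Of all 21875 genes, 27 passed there, against 4108 with all arrays, so the loss was not particular to the members. KO saline kept 1 array (replicate 1), so only differences are given here for knockout. The differences themselves then were 2.33 and 3.37 for Alox15, 1.31 and 1.35 for Hpgds, 1.00 and 1.00 for Cysltr1, 0.76 and 0.64 for Alox5ap and 0.76 and 0.96 for Ptgs1, in wild type and knockout in that order. Leaving out 1 array also mattered, for the members as for all genes, of which 1052 to 6264 then passed in wild type. The members called in wild type numbered 3 without WT saline replicate 1 and 2 without WT saline replicate 2, WT OVA replicate 2 or WT OVA replicate 3. Those called in knockout numbered 2 without WT saline replicate 1 or WT OVA replicate 3, and 1 without WT saline replicate 2 or 3, KO saline replicate 2 or KO OVA replicate 1 or 3. Without KO saline replicate 1 limma called 0 of 10 there (4 at an unadjusted p under 0.05), although no setting changed the sign of a called gene. Without WT OVA replicate 1 the same 5 genes passed in both genotypes, Ptgs1 in knockout at adjusted p 0.0478. In the authors' deposited table of log2 values the rises of the dim probes were smaller, at 1.74 and 2.26 for Alox15 and 0.72 and 0.49 for Hpgds, and the same calls were made.

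Loss of Foxa3 changed none of the 10 genes past the threshold. After saline, 0 of 10 members passed limma's test (1 at an unadjusted p under 0.05) where 0.096% of all genes did. After OVA, 0 of 10 passed (0 at an unadjusted p under 0.05) where 0.21% of all genes did. The OVA effect did not differ between the genotypes past the threshold for any member (0 of 10, and 0 at an unadjusted p under 0.05), as for all but 0.00457% of genes. The comparisons share arrays with those of OVA against saline, so they are not separate evidence on any gene.

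Among the members, Ptgs2 was the gene whose arrays separated by genotype after both challenges. The wild-type saline arrays were at -2.50 or below and at or above -3.08, and both knockout saline arrays, at -3.37 and -3.13, were lower. After OVA the knockout arrays, at -2.74 to -2.55, were again below the wild-type arrays at -2.51 to -2.14. The difference was -0.46 ± 0.18 after saline (95% interval -0.88 to -0.05, unadjusted p 0.0332, adjusted p 1) and -0.25 ± 0.17 after OVA (-0.62 to 0.13, adjusted p 1). Within slides it was -0.05 and -0.60 after saline and -0.40, -0.23 and -0.11 after OVA. Groups did not overlap for 2 of 10 members after saline (Ptgs2 and Ptgds) and for 1 after OVA (Ptgs2), where 21.5% and 8.31% of all genes did not. The share of all genes that separated after both challenges was not counted.

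For the other members the intervals bound what a difference could be. Alox15 gave a knockout minus wild-type difference of 0.66 after OVA (95% interval -0.36 to 1.69), and by slide the value was 0.72, 1.76 and -0.49, so that the sign was not the same on all slides. Hpgds gave -0.41 after OVA (-0.90 to 0.08), with slide values of -0.86, 0.19 and -0.56. Alox5ap gave 0.11 after saline (-0.34 to 0.55) and 0.09 after OVA (-0.31 to 0.49). Cysltr1 gave -0.19 (-0.68 to 0.31) and -0.18 (-0.62 to 0.26), so that for both genes the interval left out a genotype difference as large as their rise with OVA. Ptgs1 gave 0.09 (-0.47 to 0.66) and 0.01 (-0.49 to 0.51). The adjusted p was 1 in each case. The differences of the OVA effect ran from -0.30 (Hpgds, -1.03 to 0.43) to 0.56 (Ptgds, -0.59 to 1.70), and that of Alox15 was 0.55 with a wide interval (-0.98 to 2.09).

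The group means had these orders, from highest to lowest. Alox15, Alox5ap, Ptgs1 and Lta4h ran from KO OVA over WT OVA and KO saline to WT saline, with the highest and lowest means 3.40, 0.91, 0.92 and 0.12 apart. Cysltr1, Hpgds and Ptgs2 ran from WT OVA over KO OVA and WT saline to KO saline, with means 1.05, 1.49 and 0.88 apart. Neighbours of the same challenge in these orders overlapped between genotypes for each of these genes other than Ptgs2. Alox5 had the opposite order of challenge, from KO saline over WT saline and KO OVA to WT OVA, with means 0.45 apart and overlapping neighbours. Ltc4s (0.15 apart) ran from KO OVA over KO saline and WT saline to WT OVA, and Ptgds (0.66 apart) from WT saline over WT OVA and KO saline to KO OVA.

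The other genes of these pathways were taken from a list of 54 by role, of which 53 were measured. In wild type 11 rose and 4 fell with OVA, and in knockout 6 rose and 1 fell, with medians of 0.19 and 0.13. These shares, 20.8% and 7.55% in wild type and 11.3% and 1.89% in knockout, lie beside 10.9% and 7.9%, and 6.45% and 1.78%, of all genes. This list was also chosen with earlier results of these data known, so its shares are no test of enrichment. None of the 53 passed limma's test between the genotypes or for the difference of the OVA effects.

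Of 13 measured genes of arachidonate release, 3 rose and 1 fell in wild type and 1 rose in knockout. Pla2g4c, a cytosolic phospholipase A2 without calcium dependence, rose by 3.05 ± 0.31 in wild type (adjusted p 0.00133) and by 1.79 ± 0.35 in knockout (adjusted p 0.0202). Its second probe gave 3.60 in wild type (adjusted p 0.00493) and 1.00 in knockout, not past the threshold (adjusted p 0.285). The secreted phospholipase Pla2g10 rose by 1.66 in wild type, just inside the threshold (adjusted p 0.0499), where it was well above background on 1 of 3 saline and 2 of 3 OVA arrays. In knockout it was well above background on 0 of 2 saline and 3 of 3 OVA arrays, and the difference, at least 1.54-fold, did not pass the test (adjusted p 0.0554). Mgll, which frees arachidonate from an endocannabinoid, fell by 0.53 on the log2 scale in wild type (adjusted p 0.0345) and gave -0.36 in knockout (adjusted p 0.168).

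Of the 5 other lipoxygenases, Alox12e rose in both genotypes. This epidermal-type lipoxygenase lay at -4.80, -4.48 and -4.19 in WT saline and at -1.68, -1.69 and -0.93 in WT OVA, and at -4.55 and -3.77 in KO saline and -0.33, -0.85 and -0.33 in KO OVA. The OVA and saline arrays lay well apart, with rises of 3.06 ± 0.29 (8.32-fold, adjusted p 0.00118) and 3.66 ± 0.32 (12.6-fold, adjusted p 0.00123) that kept their call without any 1 of the 11 arrays. The platelet-type Alox12, which lies near Alox12e and Alox15 on chromosome 11, did the opposite. It fell by 0.96 on the log2 scale in wild type (adjusted p 0.0357) and gave -0.66 in knockout (adjusted p 0.157), while 2 of 6 platelet markers fell in wild type and 1 in knockout. The part of the platelet markers in the Alox12 values was not tested. Alox8 was not well above background in KO saline and was at least 1.7-fold higher in KO OVA (adjusted p 0.0234), with 1.10 in wild type (adjusted p 0.0791), where 2 of 3 arrays of each group were well above background.

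Of 7 other genes of leukotriene synthesis and breakdown, 2 rose in wild type and 0 in knockout. Cyp4f18, which breaks down leukotriene B4 in mouse neutrophils, rose by 1.71 ± 0.34 in wild type (adjusted p 0.015) and gave 1.26 in knockout (adjusted p 0.0735). Of 3 other leukotriene receptors, 1 rose in wild type and 0 in knockout. The medians over these 2 groups were 0.31 and 0.66 in wild type and 0.21 and 0.99 in knockout.

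Among 8 terminal prostanoid synthases, 2 rose in each genotype. Tbxas1, the thromboxane synthase, lay between -0.01 and 0.16 in WT saline and between 1.10 and 2.26 in WT OVA, and between -0.41 and -0.20 in KO saline and between 1.53 and 2.58 in KO OVA. It rose by 1.63 ± 0.32 (3.1-fold, adjusted p 0.0135) and 2.28 ± 0.36 (4.86-fold, adjusted p 0.0085), and its second probe gave 1.71 and 2.26. Ptges, the inducible prostaglandin E synthase, rose by 1.08 in knockout (adjusted p 0.0453) and by 0.91 in wild type (adjusted p 0.0351).

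Of 9 prostanoid receptors, 2 rose and 1 fell in wild type and 1 rose in knockout. Ptger4, a receptor of prostaglandin E2, rose by 1.54 ± 0.28 in knockout (adjusted p 0.0156) and by 1.38 ± 0.25 in wild type (adjusted p 0.011). Ptgir, the prostacyclin receptor, rose by 1.38 in wild type (adjusted p 0.025), but its second probe gave 0.54, not past the threshold (adjusted p 0.578). In knockout its probes gave 1.04 and -0.01, neither past the threshold. Ptgfr, the receptor of prostaglandin F2 alpha, fell by 1.07 on the log2 scale in wild type (adjusted p 0.0378) and gave -0.95 in knockout (adjusted p 0.0967).

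Of 6 genes of prostaglandin breakdown and transport, 1 fell in each genotype. It was Hpgd, the dehydrogenase that inactivates prostaglandins and that is abundant in lung, and it lay between 3.87 and 4.22 in WT saline and between 2.48 and 3.31 in WT OVA. The knockout arrays lay at 4.10 and 4.14 after saline and between 2.75 and 3.45 after OVA, so that no arrays overlapped. It fell by 1.10 on the log2 scale in wild type (adjusted p 0.0175) and by 1.04 in knockout (adjusted p 0.0446), and its second probe fell by 1.15 and 1.13. Neither of the 2 measured receptors of lipoxins and resolvins passed the test. These calls rest on few arrays: without slide 1, 2 of the 53 genes passed in wild type, where 27 of all 21875 genes did. In wild type 8, 5 and 6 passed without WT saline replicate 1, 2 or 3, and 4 and 3 without WT OVA replicate 2 or 3. In knockout 1 and 3 passed without KO saline replicate 1 or 2, and 4, 11 and 2 without KO OVA replicate 1, 2 or 3.

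**Figure D4:**
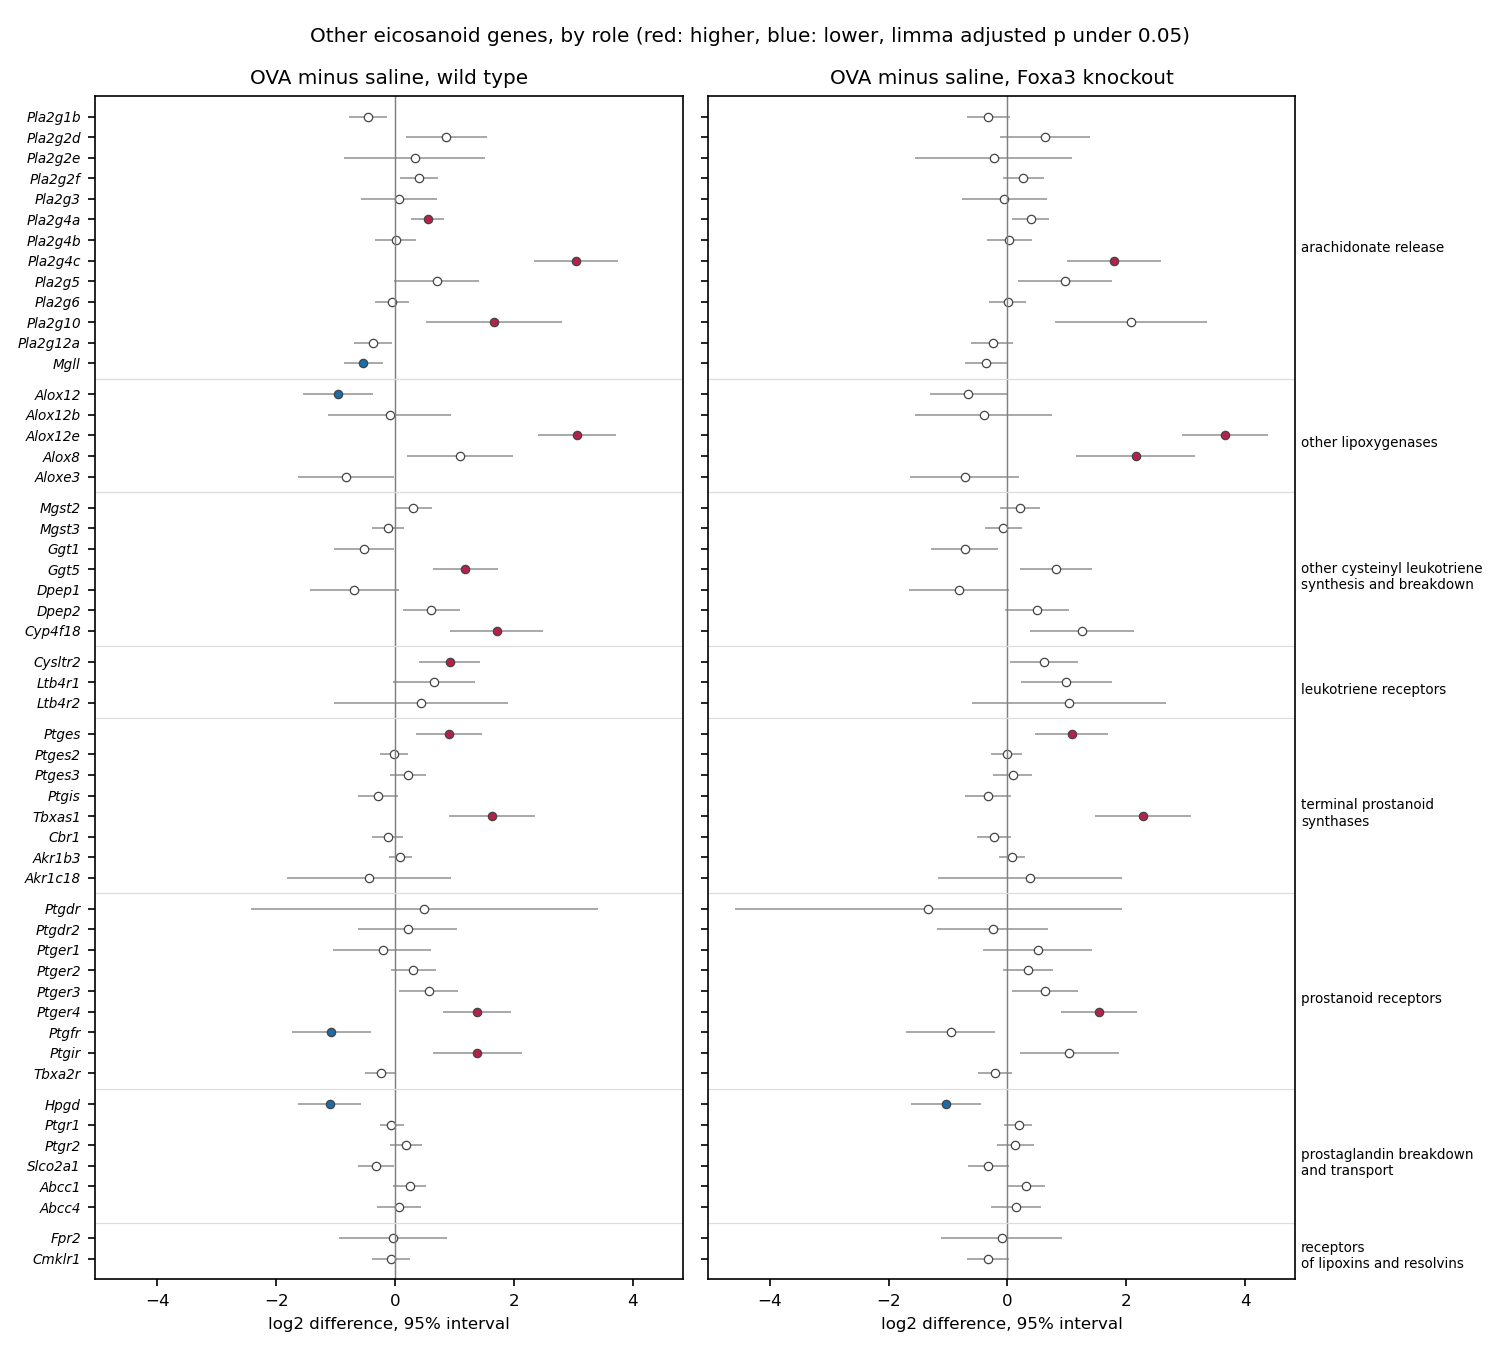
OVA minus saline (x axis, log2 difference with 95% interval) for the 53 other genes of the pathways, ordered by role (y axis), in wild type on the left and Foxa3 knockout on the right, on 1 scale. Red points rose and blue points fell at limma's adjusted p under 0.05. The knockout points of Alox8 and Pla2g10 are fitted against saline arrays not well above background. Alox12e stands far to the right in both, and Hpgd is the blue point present in both.

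Markers of several cell types moved with OVA beside these genes. Of 12 macrophage and monocyte markers, 11 rose in wild type and 9 in knockout, and the mean of their levels ran from 0.64 to 0.93 in WT saline, stood at 0.73 in both KO saline arrays, and ran from 2.18 to 2.87 in WT OVA and from 2.22 to 2.85 in KO OVA. Of 4 measured eosinophil markers, 2 rose and 1 fell in each genotype, with the granule gene Prg2 up by 3.03 and 3.83 and the receptor Ccr3 up by 2.71 and 2.85, while Siglecf fell by 0.49 and 0.77 on the log2 scale. Of 9 measured mast cell markers, 1 rose and 1 fell in wild type and 1 rose in knockout, and Fcer1a gave 0.31 and 0.55, not past the threshold. The median differences over the 9 were 0.37 in wild type and 0.87 in knockout. Of 2 basophil markers, 0 rose in wild type and 1 in knockout, with medians of 1.13 and 1.74. Of 8 T helper type 2 markers, 4 rose in wild type and 2 in knockout. Of 8 neutrophil markers, 1 rose in each genotype. Of 6 endothelial markers, 4 fell in wild type and 1 in knockout, with median differences of -0.61 and -0.56, and the mean of their levels ran from 3.37 to 3.53 in WT saline, 3.47 to 3.50 in KO saline, 2.64 to 3.09 in WT OVA and 2.65 to 3.06 in KO OVA. Neither the part of the immune cells in the rises of Alox5ap, Cysltr1, Alox15, Ptgs1 and Hpgds nor that of the endothelial markers in the falls of Hpgd, Ptgfr and Mgll was tested.

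Genes whose pattern was among the 3 most like each risen member were found over the 11 arrays, among 14911 genes well above background on all of them, by the root mean square difference after each gene was centred. For Alox15 they included Il4i1 (0.404) and Rrm2 (0.421), where the median gene lay at 1.63. For Hpgds they included Casp4 (0.101) and Cd274 (0.145), where the median lay at 0.70. For Alox5ap they were Sema4a (0.101), Mvd (0.106) and Tmem51 (0.110), and for Cysltr1 Gna15 (0.106), Relb (0.112) and Cenpu (0.116). For Ptgs1 they were Snx8 (0.090), Cenpq (0.094) and Smap2 (0.098). This is a description of likeness, in arrays that all share the contrast of OVA with saline.

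Promoters were available for 7 of the 10 members (not Alox5ap, Alox15 or Cysltr1) from RefSeq in build GRCm38.p6, and 4 motifs were searched on both strands in the 250 bases before the start. GAGGAA, the core bound by the myeloid factor PU.1 and other ETS factors, was found in 5 of 7 (Alox5, Hpgds, Lta4h, Ptgs1 and Ptgs2), where 23.3% of 32851 promoters hold it, and these include members that did not rise. GGGCGG, bound by Sp1, was found in Alox5 and Ptgs2 (32.7% of promoters). TATAAA (12.4%) and TGTTTAC, bound by forkhead factors (3.17%), were found in 0 of 7. The promoters of the 2 risen members that have one are shown with GAGGAA in capitals, 24 bases before the start in Ptgs1 (chr2:36230176-36230425, plus strand) and 49 bases before it in Hpgds (chr6:65144731-65144980, minus strand). Both starts lie inside the gene's span in the gene table, so other transcripts of the genes start further upstream. A match is a description of these letters and not a bound site. The members and motifs were chosen with earlier results of these data known, so the shares are no test of enrichment.
Ptgs1: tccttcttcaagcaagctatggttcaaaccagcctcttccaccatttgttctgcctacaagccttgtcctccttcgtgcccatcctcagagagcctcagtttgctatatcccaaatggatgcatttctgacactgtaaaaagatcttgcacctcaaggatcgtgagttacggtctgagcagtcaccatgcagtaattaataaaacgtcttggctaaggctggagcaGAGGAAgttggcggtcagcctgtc
Hpgds: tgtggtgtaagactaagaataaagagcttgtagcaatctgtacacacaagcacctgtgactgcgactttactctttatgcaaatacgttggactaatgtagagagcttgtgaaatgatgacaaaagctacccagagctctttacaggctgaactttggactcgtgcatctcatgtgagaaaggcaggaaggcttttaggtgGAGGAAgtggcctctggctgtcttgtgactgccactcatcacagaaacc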

How the data were processed

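Total lung RNA was labelled with Cy3 by a low-input kit, per the labels. The deposited scanner files hold spot intensity values, background-subtracted by the authors with Agilent Feature Extraction (9.5.1.1 per the file headers, 9.1 per the submitters' processing notes). The authors' deposited value table holds log2 values, whose normalization is not given in the sources used here. Its columns have medians of 7.669 to 7.674 and follow the raw median signal (rank correlation 0.99992 to 0.99998).

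Intensities were taken as log2 minus each array's 75th percentile, which ran from 9.83 to 10.50 in log2 units. Probes were named through a GRCm38.p6 gene table, and each gene was read from its brightest kept probe. The 4 group means were fitted together with limma (version 3.58.1 in R 4.3.3) to 21875 genes on all 11 arrays. Tests were two-sided, and a gene was called where its p, adjusted by Benjamini-Hochberg, was under 0.05. The script was tested on simulated data. The number of arrays limits the precision. Where a group was not well above background, the fold is a lower bound against the lowest signal among probes well above background. The members, lists and motifs were chosen with earlier results of these data known. Of the wider list, up to 6 called genes with the largest rise and 6 with the largest fall were named per comparison. The 3 genes most like each risen member were named, except that 1 each for Alox15 and Hpgds is not reported here. Replicate numbers were not used to pair the samples: deviations of same-numbered arrays had correlations of -0.40 to 0.34 (median -0.12). Most same-numbered arrays lay on different slides, so these values cannot exclude a pairing.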

Additional observations from a re-analysis of the deposited data

How the results depend on the processing

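Over 24 alternatives, every member called with OVA kept its sign, while the calls held in 22 of 24 for Alox15 and Hpgds, 18 for Alox5ap, 17 for Cysltr1 and 16 for Ptgs1 in wild type, and in 21, 13, 9 and 8 for Alox15, Hpgds, Alox5ap and Cysltr1 in knockout. The cause of each change below was not tested. With normexp background correction (offset 50), 0 (OVA in wild type) and 0 (OVA in knockout) members passed, 0 (OVA in wild type), 0 (OVA in knockout), 0 (genotype after saline), 1 (genotype after OVA) and 0 (difference of OVA effects) genes passed and 0 (OVA in wild type) and 0 (OVA in knockout) other pathway genes passed, and signs turned for Alox15 -0.63 (genotype after saline) and Alox15 -0.07 (genotype after OVA). Normexp was rerun without spots whose local background was over 10 times the median. Outside controls these were 7 spots on WT saline replicate 2 and 5 on WT OVA replicate 1. In this rerun 6 (OVA in wild type) and 3 (OVA in knockout) members passed, with Ptgs2 called in wild type at limma's adjusted p 0.0354. Hpgds lost its knockout call in the rerun, at a difference of 0.32 (limma's adjusted p 0.156). There 84 (genotype after OVA) and 0 (difference of OVA effects) genes passed. Signs turned for Hpgds 0.17 (genotype after saline), Cysltr1 -0.08 (difference of OVA effects), Ptgds -0.03 (difference of OVA effects) and Ptgs2 -0.02 (difference of OVA effects). With quantile scaling, 0 (difference of OVA effects) genes passed, and signs turned for Ptgs1 0.00 (genotype after OVA) and Alox5ap 0.00 (difference of OVA effects). With median scaling, 2 (OVA in knockout) members passed, and signs turned for Ltc4s -0.03 (OVA in knockout) and Cysltr1 0.00 (difference of OVA effects). Without the filter on dim probes, 2 (OVA in knockout) members passed and 1185 (OVA in knockout) and 0 (difference of OVA effects) genes passed. With probes above background on all 11 arrays, 0 (difference of OVA effects) genes passed. With the mean of a gene's probes, signs turned for Cysltr1 -0.09 (difference of OVA effects). With the compared groups alone, 3 (OVA in wild type) and 1 (OVA in knockout) members passed, 2039 (OVA in wild type), 444 (OVA in knockout), 10 (genotype after saline) and 11 (genotype after OVA) genes passed and 7 (OVA in wild type) and 2 (OVA in knockout) other pathway genes passed. With a trended robust prior, 2756 (OVA in knockout), 95 (genotype after OVA) and 0 (difference of OVA effects) genes passed. With slide as a block, 2 (OVA in knockout) members passed and 2717 (OVA in wild type), 845 (OVA in knockout), 12 (genotype after saline), 24 (genotype after OVA) and 0 (difference of OVA effects) genes passed, and signs turned for Ptgds 0.11 (OVA in knockout), Cysltr1 -0.01 (difference of OVA effects) and Lta4h 0.01 (difference of OVA effects). With the authors' deposited value table, 2856 (OVA in knockout), 95 (genotype after OVA) and 0 (difference of OVA effects) genes passed and 11 (OVA in knockout) other pathway genes passed, and signs turned for Ltc4s 0.00 (OVA in knockout) and Ptgs1 -0.01 (genotype after OVA). Without slide 1, 0 (OVA in wild type) and 0 (OVA in knockout) members passed, 27 (OVA in wild type), 13 (OVA in knockout), 1 (genotype after saline), 1 (genotype after OVA) and 0 (difference of OVA effects) genes passed and 2 (OVA in wild type) and 1 (OVA in knockout) other pathway genes passed, and signs turned for Ltc4s 0.07 (OVA in wild type), Lta4h -0.06 (OVA in knockout), Alox15 -0.40 (genotype after saline), Ptgs1 -0.17 (genotype after saline), Hpgds 0.04 (difference of OVA effects), Ltc4s -0.02 (difference of OVA effects), Ptgds 0.00 (difference of OVA effects) and Ptgs1 0.20 (difference of OVA effects). With normexp and all spots, limma left 2 members in wild type and 1 in knockout at an unadjusted p under 0.05. All other sign changes were of differences that did not pass the test.

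Leaving out each array in turn left 2 to 5 (OVA in wild type) and 0 to 5 (OVA in knockout) members, 1052 to 6264 (OVA in wild type), 83 to 3307 (OVA in knockout), 11 to 23 (genotype after saline), 17 to 35 (genotype after OVA) and 0 to 1 (difference of OVA effects) genes and 3 to 21 (OVA in wild type) and 1 to 11 (OVA in knockout) other pathway genes. Signs that turned gave these ranges: for OVA in wild type in Lta4h -0.05 to 0.15 and Ltc4s -0.14 to 0.02, for OVA in knockout in Lta4h -0.11 to 0.23, Ltc4s -0.03 to 0.09 and Ptgds -0.11 to 0.03, for genotype after saline in Alox15 -0.21 to 0.46, Alox5 -0.09 to 0.18, Alox5ap -0.13 to 0.34, Hpgds -0.34 to 0.11, Lta4h -0.11 to 0.23, Ltc4s -0.02 to 0.14 and Ptgs1 -0.05 to 0.21, for genotype after OVA in Alox5ap -0.03 to 0.19, Cysltr1 -0.36 to 0.01, Lta4h -0.03 to 0.13, Ptgds -0.22 to 0.17 and Ptgs1 -0.15 to 0.17, for difference of OVA effects in Alox5ap -0.26 to 0.22, Cysltr1 -0.17 to 0.20, Lta4h -0.18 to 0.16 and Ptgs1 -0.25 to 0.08.

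Deviations of same-numbered arrays had a median correlation of -0.12. Most of these arrays lay on different slides, so this cannot exclude a pairing by number. With the replicate block, 1 (OVA in knockout) members passed, 715 (OVA in knockout) and 0 (difference of OVA effects) genes passed and 3 (OVA in knockout) other pathway genes passed, and signs turned for Ptgds 0.10 (OVA in knockout) and Lta4h 0.04 (difference of OVA effects).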
